A study of Homo sapiens with 3 samples.

Results

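Of the BRG1 peaks shared by 2 ChIP libraries of 12Z cells, 1095 lay on chromosome arms with another shared peak no more than 12500 bases away. They formed 483 stitched clusters of 2 to 7 peaks. They were drawn from the 6343 peaks of the deposited overlap list. Removal of chromosomes X and Y and of 18 windows around centromeres and on acrocentric short arms dropped 2563 peaks and left 3780 arm shared peaks on chromosomes 1 to 22. Those with a neighbour within the gap were kept (29.0%), and the other 2685 are called lone peaks. The members were chosen by the positions of called peaks alone, so the number, size and span of clusters describe the choice and were not tested.

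12Z cells are an immortalised human line derived from endometriosis and labelled epithelial. All libraries came from wild-type cells of this line: replicates 1 and 2 of the BRG1 immunoprecipitation and 1 input library of chromatin without antibody. Nothing in the labels says that the replicates were separate cultures, so their agreement may be technical, and there was no second condition. Peaks alone do not show which genes a line expresses, so the epithelial label could not be checked here.

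BRG1, the product of SMARCA4, is an ATPase of the SWI/SNF complexes, which slide or evict nucleosomes and so open DNA to transcription factors. SWI/SNF is found at promoters and more widely at enhancers, where AP-1 and TEAD factors often bind in adherent cells. Joining enhancers at gaps of this size is the usual first step in defining super-enhancers, which are then ranked by signal. The lists here hold no read signal and no histone mark, so the clusters are runs of BRG1 peaks and nothing more is claimed of them.

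Some of the promoters that lay under a clustered peak carried AP-1 or TEAD letters, each at a higher share than promoters at large. Of 19725 promoter windows of protein-coding genes (RefSeq, GRCh38.p14, each 300 bases, from 250 before to 50 after a start; overlapping windows of a gene counted once), 34 windows of 30 genes overlapped a clustered peak. The AP-1 motif TGANTCA was in 10 of the 34 (29.4%), against 6.25% of all windows. The TEAD motif GGAATG was in 8 (23.5%), against 12.3% of all. Windows of different genes were not merged, so the overlapping DST and BEND6 windows share 1 TEAD site that is counted for both. Lone arm peaks overlapped 97 windows and gave 27.8% and 26.8%, and the difference between clustered and lone peaks was not tested. Both strands were searched. Matches of the 2 motifs can share bases at their ends and each was then counted. These shares are descriptions with no test, and a match is not evidence that a factor binds there.

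The following promoters, covered in all or part by a clustered peak, are examples, and each of them holds a match. They do not stand for all such promoters, since 15 of the 34 coding windows held either motif. Windows of other genes named below, among them DAB2, AHNAK, SEMA3C, CFLAR and TRAM2, are not printed. Those of SEMA3C, CFLAR and TRAM2 held neither motif. Bases run 5' to 3' on the gene's strand, and capitals mark a match to either motif or to its reverse complement.
CCN2, chr6:131951323-131951622, minus strand: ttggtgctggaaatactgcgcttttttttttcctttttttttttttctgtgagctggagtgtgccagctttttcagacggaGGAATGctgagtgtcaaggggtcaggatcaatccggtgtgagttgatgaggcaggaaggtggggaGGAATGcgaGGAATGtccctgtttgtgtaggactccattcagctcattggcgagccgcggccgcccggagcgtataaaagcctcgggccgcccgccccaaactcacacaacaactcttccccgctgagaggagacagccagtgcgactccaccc
SMAD3, chr15:67125492-67125791, plus strand: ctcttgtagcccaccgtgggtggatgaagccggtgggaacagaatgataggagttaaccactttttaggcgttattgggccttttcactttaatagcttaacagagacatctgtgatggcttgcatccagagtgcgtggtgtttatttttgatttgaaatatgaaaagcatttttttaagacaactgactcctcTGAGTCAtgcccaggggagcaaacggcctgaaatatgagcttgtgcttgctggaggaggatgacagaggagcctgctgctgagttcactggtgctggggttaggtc
DST, chr6:56954781-56955080, minus strand: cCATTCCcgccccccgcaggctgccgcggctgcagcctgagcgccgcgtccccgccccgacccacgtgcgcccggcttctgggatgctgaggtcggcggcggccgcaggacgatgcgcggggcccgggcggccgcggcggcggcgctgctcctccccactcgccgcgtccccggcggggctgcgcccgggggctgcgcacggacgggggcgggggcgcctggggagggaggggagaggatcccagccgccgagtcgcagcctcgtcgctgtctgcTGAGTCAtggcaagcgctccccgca
LINC-PINT, chr7:130913261-130913560, minus strand: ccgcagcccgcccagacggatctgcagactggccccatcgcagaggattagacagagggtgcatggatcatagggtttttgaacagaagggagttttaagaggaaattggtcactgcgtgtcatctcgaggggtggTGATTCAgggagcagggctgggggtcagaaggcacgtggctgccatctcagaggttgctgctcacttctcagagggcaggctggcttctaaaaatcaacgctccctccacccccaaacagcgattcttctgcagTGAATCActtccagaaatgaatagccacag
EMP1, chr12:13196476-13196775, plus strand: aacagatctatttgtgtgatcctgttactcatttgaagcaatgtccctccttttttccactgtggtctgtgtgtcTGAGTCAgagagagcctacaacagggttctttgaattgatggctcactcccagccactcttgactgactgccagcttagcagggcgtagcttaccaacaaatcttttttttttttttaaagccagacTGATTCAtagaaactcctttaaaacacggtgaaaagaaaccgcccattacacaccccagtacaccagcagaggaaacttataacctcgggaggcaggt
CAPN2, chr1:223701347-223701646, plus strand: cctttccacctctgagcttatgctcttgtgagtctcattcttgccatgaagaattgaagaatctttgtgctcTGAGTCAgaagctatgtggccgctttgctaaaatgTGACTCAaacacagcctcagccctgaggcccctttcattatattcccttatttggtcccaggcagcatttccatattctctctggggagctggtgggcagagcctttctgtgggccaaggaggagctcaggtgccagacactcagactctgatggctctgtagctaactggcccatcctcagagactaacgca

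The CCN2 window held 3 TEAD matches and no AP-1 match. CCN2 encodes a matricellular growth factor and is a standard target of YAP and TEAD. The windows of EMP1, a membrane protein gene, and CAPN2, a calpain protease gene, each held 2 AP-1 matches and no TEAD match. The DST window held 1 of each. The window at one of the SMAD3 starts held 1 AP-1 match. The CAV2 windows, also under a clustered peak, held neither motif, which says only that these letters are absent from those windows.

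Most clusters were pairs. Of the 483 clusters, 387 (80.1%) had 2 peaks, 74 had 3, 15 had 4, 4 had 5, 2 had 6 and 1 had 7. The median span was 8.28 kb (quartiles 4.89 and 12.2 kb, range 1.39 to 59.0 kb). Pairs had a median span of 7.00 kb, clusters of 3 peaks 13.3 kb and clusters of 4 or more 20.8 kb. Together the clusters spanned 4.44 Mb, of which peaks covered 1497 kb. In the median cluster, peaks covered 34.7% of the span.

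**Figure D1:**
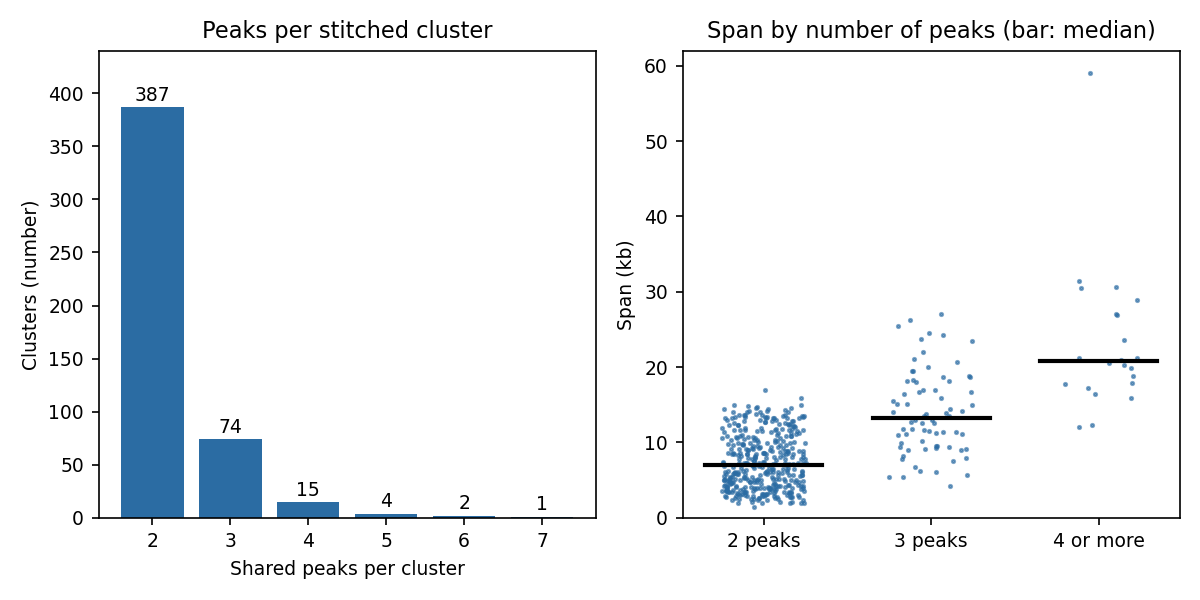
Left, number of stitched clusters (y axis) by shared peaks per cluster (x axis); right, span in kb of each cluster (points) by number of peaks, in groups of 2, 3 and 4 or more, with the median as a bar. Pairs make up 387 of the 483 clusters, and a single cluster of 7 peaks reaches 59.0 kb.

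Gaps inside clusters could not exceed the joining distance, by the rule. The 612 inner gaps had a median of 4.16 kb, and 103 of them (16.8%) were under 1 kb. Single replicate peaks bridged 3 of the 612 gaps in replicate 1 and 0 in replicate 2. Among all arm shared peaks the median gap to the nearest neighbour, which the rule does not limit, was 44.2 kb. Just inside the joining gap the median fold was slightly lower than just outside it, and the median width slightly larger. The 122 peaks whose nearest gap was from 10 kb up to that limit had a median fold of 3.43 and a median width of 1060 bp. The 90 peaks just outside, up to 15 kb, had 3.53 and 1027 bp.

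**Figure D2:**
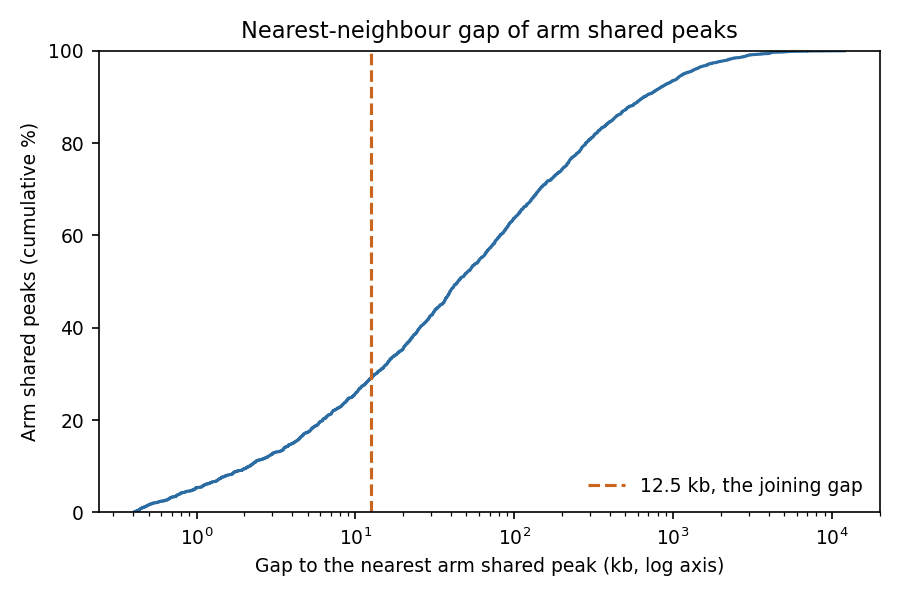
Cumulative percentage of the 3780 arm shared peaks (y axis) by the gap in kb to the nearest other arm shared peak (x axis, log scale). The dashed line is the joining gap of 12500 bases, at or below which 29.0% of the peaks lie.

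Clustered peaks were wider than lone peaks and slightly lower in fold, the authors' ratio of signal over background at each peak. In the overlap list the median fold was 3.44 for clustered and 3.51 for lone peaks. A replicate's value is that of its peak with the largest overlap. In replicate 1 the medians were 3.79 and 3.83, and in replicate 2 they were 3.88 and 3.95. Median widths in the overlap list were 1146 bp for clustered and 945 bp for lone peaks. The order was the same in replicate 1 (609 and 527 bp) and replicate 2 (391 and 339 bp). Fold and width come from the same calls that chose the clusters, so these are descriptions.

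**Figure D3:**
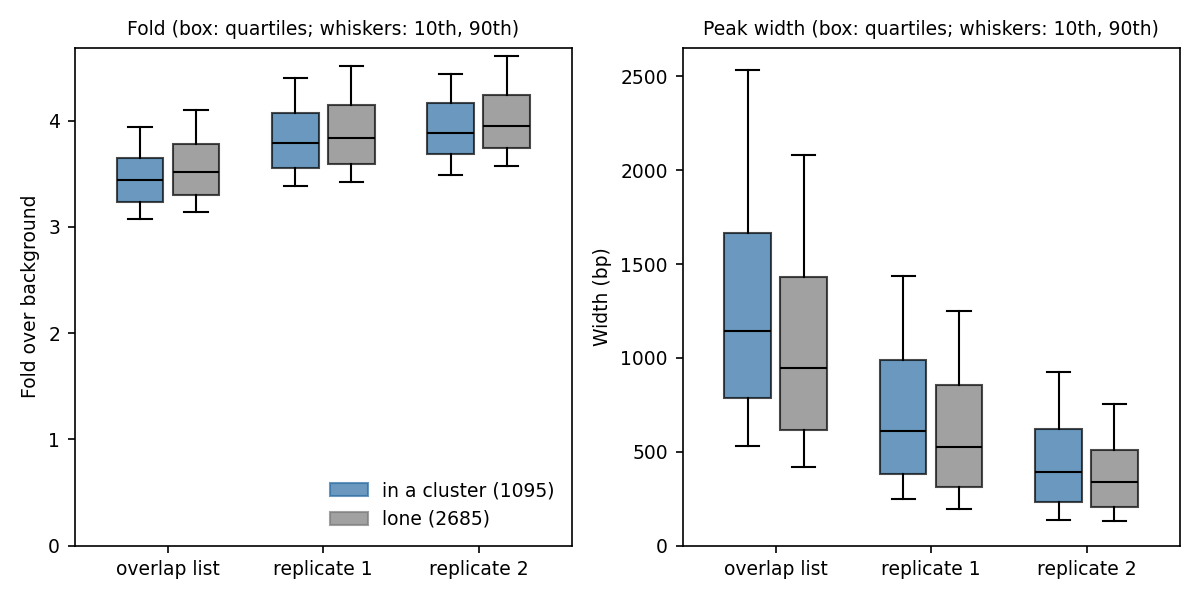
Fold over background (left) and peak width in bp (right) of the 1095 clustered and 2685 lone arm shared peaks, in the overlap list and at the matching peak of each replicate. Boxes are quartiles with the median and whiskers the 10th and 90th percentiles; clustered peaks have the lower median fold and the larger median width in all 3 lists.

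Few clustered peaks were strong calls. In the overlap list, 129 of 1095 clustered peaks (11.8%) had a −log10 q, the caller's adjusted p, of at least 5, against 13.9% of all arm shared peaks. The matching replicate 1 peak reached it for 26 (2.37%; 3.04% of all) and the replicate 2 peak for 19 (1.74%; 2.06% of all). Both replicates reached it for 5 clustered peaks (0.457%), against 0.714% of all arm shared peaks.

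The replicates ranked the folds of clustered peaks only in part alike. All 1095 clustered peaks had a peak in each replicate, as the overlap list requires. Across these peaks the folds of the replicates had a Pearson correlation of 0.49 and a Spearman correlation of 0.44 (n = 1095, all from the same libraries), and lone peaks gave 0.47 and 0.41 (n = 2685). In 249 of 387 pairs (64.3%) the same peak had the higher fold in both replicates. The strongest peak was the same in 35 of 74 clusters of 3 peaks and in 10 of 22 larger ones.

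The replicate lists held extra peaks inside the spans. In 87 clusters replicate 1 had 105 peaks that overlapped no shared peak, and in 19 clusters replicate 2 had 22. Stitched alone in the same way, replicate 1 gave 2094 clusters from 11390 arm peaks and replicate 2 gave 771 from 5098. Each clustered peak needed a peak in both replicates, so most clusters were bound to overlap clusters of each replicate alone. Of the 483 clusters, 478 overlapped a cluster of replicate 1 alone and 475 (98.3%) one of replicate 2 alone. Conversely, 22.7% of the replicate 1 clusters and 61.3% of the replicate 2 clusters overlapped one of the 483.

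The cluster with the most peaks crossed one end of ATXN1 on chromosome 6, a gene for a chromatin-binding repressor protein (16711468 to 16770454, 59.0 kb). Its first 4 peaks overlapped the gene body and the other 3 lay outside it. The 7 peaks had folds of 3.61, 3.6, 3.32, 4.5, 3.26, 3.32 and 4.33 in the overlap list. In replicate 1 the same peaks had 3.97, 4.39, 3.59, 4.73, 3.89, 3.82 and 4.58. In replicate 2 they had 4.0, 4.16, 3.70, 4.22, 3.55, 3.72 and 4.77. Peaks 4 and 7 were the highest in both replicates, peak 4 first in replicate 1 and peak 7 first in replicate 2.

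SMURF2, which encodes an E3 ubiquitin ligase that limits TGF-beta receptor and SMAD signalling, had one end crossed by a cluster of 6 peaks over 30.5 kb on chromosome 17 (64653373 to 64683824). Of the 6, 2 overlapped the gene body and 4 lay outside it. Peak 5 was the highest in both replicates, at 4.65 and 4.41. The first had 3.47 in replicate 1 and 4.28 in replicate 2, the widest disagreement of the 6.

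Of the 5-peak clusters, one lay over LINC-PINT and LINC00513, overlapping noncoding genes on chromosome 7 (130886591 to 130918006). Its peak 4 covered the LINC-PINT promoter printed above, with a fold of 3.89 in replicate 1 and 3.93 in replicate 2. A further 5 peaks lay outside coding genes, nearest ASB7, on chromosome 15 (100712955 to 100733938). EXT1, a gene for heparan sulphate synthesis, held 5 on chromosome 8 (118008650 to 118035711). A cluster of 5 overlapped CPA5, a carboxypeptidase gene, on chromosome 7 (130352498 to 130373756).

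The other cluster of 6 peaks differed in kind. It lay on chromosome 15 at 20644828 to 20673807, within 1 Mb of an excluded window and with no coding gene within 100 kb. Peaks covered 81.5% of its 29.0 kb, and its median fold was 2.45. The mean fold percentile of its replicate peaks (rank among all arm peaks of each replicate, averaged over both) was 1.22. The other 6 clusters of 5 or more peaks lay between 41.4 and 63.2 on that scale.

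**Figure D4:**
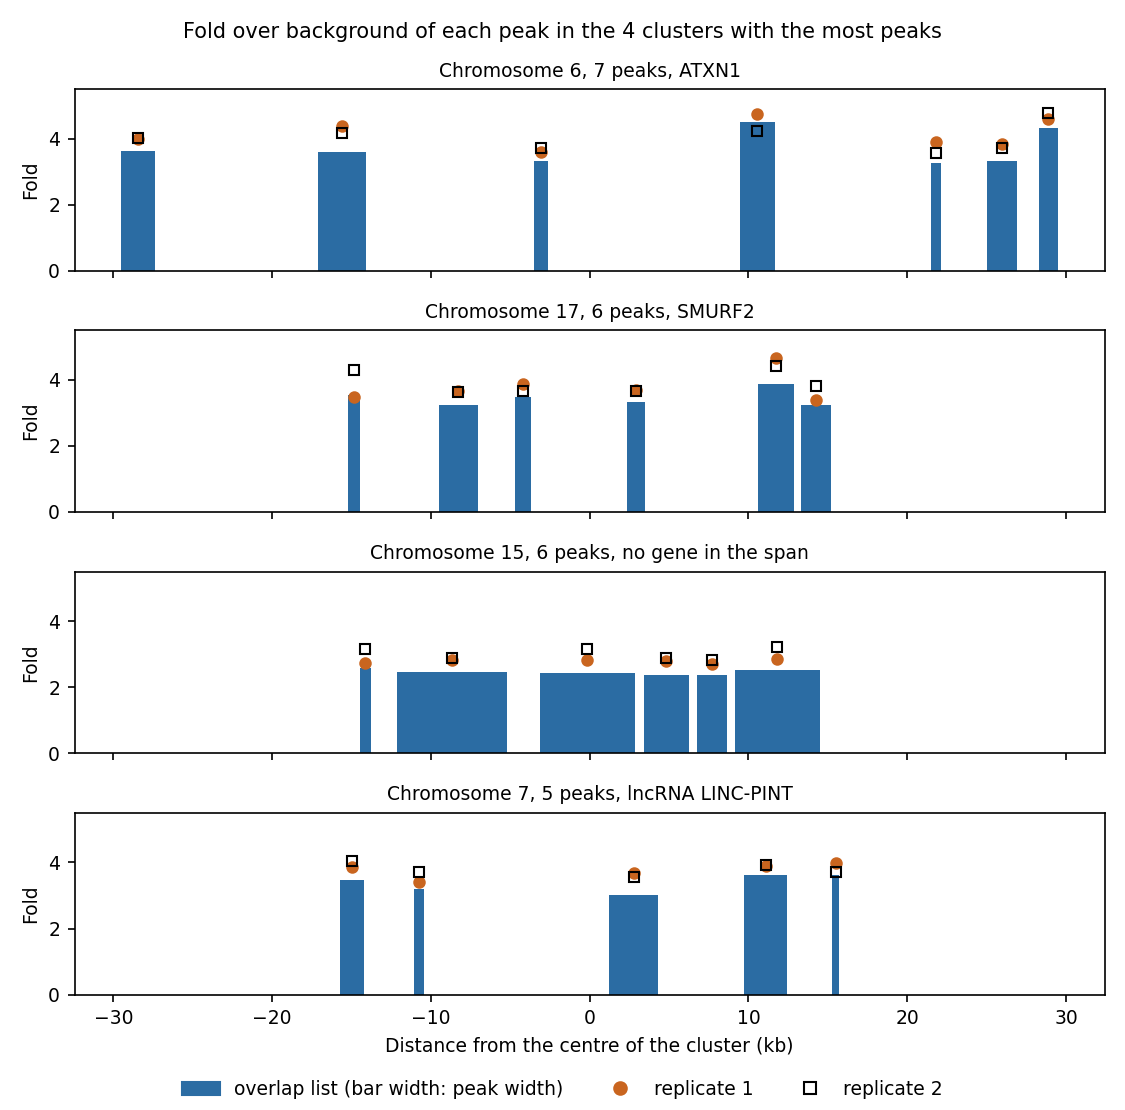
Fold over background (y axis) of each peak in the 4 clusters with the most peaks, against distance in kb from the cluster's centre (x axis). Bars are peaks of the overlap list, drawn to their width, with the matching replicate 1 (circles) and replicate 2 (squares) folds; the chromosome 15 cluster stands out by wide peaks of fold under 3.

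A median fold under 3 was found in 12 clusters (2.48%), 3 each on chromosomes 15 and 17. Of the lone peaks, 95 (3.54%) had a fold under 3, so low fold was not particular to clusters. The 3 on chromosome 17 lay between 43233471 and 43300892, nearest CCDC200. Others lay over DUX4 at the end of chromosome 4, a gene present in many near-identical copies, and over the laminin gene LAMA5. In 5 of the 12 the highest −log10 q was still 5 or more, up to 19 at 106751 to 112517 on chromosome 18. Without peaks of fold under 3, an alternative chosen after seeing the data, the count was 445 clusters.

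The 10 clusters with the highest replicate folds were all pairs, as were 80.1% of all clusters, so this count is near the background. The score averages over the replicate peaks in a span, and the part of their number was not tested. By mean fold percentile over both replicates, the top 10 ranged from 82.9 to 92.6, against a median of 55.8 over all clusters, and each of the 10 had 2 peaks. First came a pair within PCBP3, an RNA-binding protein gene, on chromosome 21 (45864864 to 45875348), with replicate folds of 4.11 and 4.83 at one peak and 4.58 and 4.66 at the other. Next was a pair on chromosome 5 whose nearest coding gene, over 10 kb but under 100 kb away, was DAB2, an endocytic adaptor gene (39498114 to 39502816), with 5.12 and 4.50, then 4.22 and 4.45. A cluster of 3 peaks at 39423551 to 39441753 included the DAB2 promoter, and another of 3 lay beyond the pair at 39516826 to 39526030, both named after their values were seen. The pair nearest SKAP1 on chromosome 17 and the pair within DOCK2 on chromosome 5 were also among the 10. A pair beside ITGB6, the integrin beta-6 gene, lay at 160205384 to 160208537 on chromosome 2. Its second peak had a fold of 5.47 in replicate 1 and 3.86 in replicate 2. The nearest genes of the remaining pairs with a coding gene within 100 kb were SPRYD7 and DUSP5, a phosphatase that acts on ERK. The other 3 had none within that distance.

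The long clusters mostly repeated those with many peaks: 7 of the 10 longest were also among the 10 with the most peaks. DDAH1, an enzyme gene of nitric oxide metabolism, had a cluster of 4 peaks over 30.7 kb on chromosome 1 (85313768 to 85344468), 3 of them overlapping its body. SBF2, a gene of the myotubularin family, held 3 over 26.2 kb on chromosome 11 (10236642 to 10262885). OLR1 and TMEM52B shared a cluster of 4 peaks on chromosome 12, and another 4 on chromosome 11 had TMEM135 as the nearest coding gene.

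With the first peak standing for each cluster, none of 3 tests of position relative to genes passed the threshold of 0.05. Some other settings passed it for gene ends. A single peak per cluster, the first by position, kept peaks of a cluster from counting more than once. That peak lay inside a protein-coding gene in 48.2% of clusters (233 of 483; 95% Wilson interval 43.8 to 52.7%) and in 48.4% of lone peaks (1300 of 2685). The difference was −0.18 percentage points, with a 95% interval of −4.99 to 4.66 (Fisher's exact test, two-sided, adjusted p = 0.961 over 3 comparisons).

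Within 3 kb of either end of a coding gene lay 9.11% of clusters (44 of 483) and 10.4% of lone peaks (279 of 2685). The difference of −1.28 points had an interval of −3.84 to 1.82 (Fisher's exact test, adjusted p = 0.719). This result depended on which peak stood for the cluster. With the middle peak the share was again 9.11% (Fisher's exact test, adjusted p = 0.693). With the peak of highest fold, 6.21% of clusters were at a gene end (Fisher's exact test, adjusted p = 0.0104). That peak was picked by fold within its cluster, while lone peaks were not picked by fold. The effect of this choice was not tested. Clusters stitched from a single replicate also lay at gene ends less often than lone peaks of that replicate. The shares were 8.43% against 12.1% in replicate 2 and 11.1% against 13.3% in replicate 1 (Fisher's exact test, adjusted p = 0.0109 and 0.0283).

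No coding gene lay within 100 kb of 16.8% of clusters (81 of 483) and 18.2% of lone peaks (490 of 2685). The difference was −1.48 points, with an interval of −4.90 to 2.38 (Fisher's exact test, adjusted p = 0.719). Intervals cover counting error only. Neighbouring units share genes, which Fisher's test does not take into account.

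Over their whole span, 227 clusters overlapped no coding gene, 243 overlapped 1 and 13 overlapped 2 or more. A gene end lay inside the span of 54 clusters (11.2%), and 202 (41.8%) lay wholly inside gene bodies. Of the 227 without a coding gene, 113 (49.8%) overlapped a long noncoding RNA gene. MicroRNA hairpins of RefSeq lay in the spans in 8 cases and under a clustered peak in 2, MIR4492 and MIR8078. The latter was in the low-fold cluster on chromosome 18.

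The share of arm peaks that fell in clusters varied among chromosomes. Chromosome 5 had 73 clusters from 437 arm peaks, and 38.2% of those peaks were clustered. The share was highest on chromosome 15 (41.8% of 237) and was 36.8% on chromosome 17 (of 182). Chromosome 20 was near the overall share, at 27.1% of 129. Low shares were found on chromosomes 2 (17.3% of 283) and 4 (14.7% of 116), and none of the 25 arm peaks of chromosome 16 was clustered. Chromosomes 5, 15 and 20 together held 26.5% of clusters and 21.2% of arm peaks.

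Coding genes with a cluster in their body or within 10 kb of it numbered 286 of 19126 on chromosomes 1 to 22 (1.5%). They were long: their median length was 108 kb, against 80.6 kb for genes with arm shared peaks but no cluster and 24.5 kb for all coding genes. The part of length in the counts below was not tested. In 37 genes there were 2 or more clusters and in 8 there were 3, the highest number.

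The 8 genes with 3 clusters included STK4, which encodes the Hippo pathway kinase MST1. Its 3 pairs lay between 45011081 and 45068177 on chromosome 20, with median folds of 3.62, 3.33 and 3.05. SEMA5A, a semaphorin gene, had 3 pairs between 9046436 and 9350837 on chromosome 5. EXT1 had 9 clustered peaks in 3 clusters. The others were SBF2, TENM2, TRAM2, CAST (the calpain inhibitor calpastatin) and ANXA8. ANXA8 has near-identical copies, so its 3 clusters are uncertain. Genes with 2 clusters included SMAD3, EGFR, CALD1, DST, CFLAR, SEMA3C, PRKCA and AHNAK.

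TGF-beta signalling genes held clusters in 5 of 24 cases (20.8%), against 1.5% of all coding genes. This pathway runs from secreted ligands through receptors to SMAD factors, and promotes matrix production and epithelial plasticity. SMAD3, a receptor-activated SMAD, had 4 peaks over 21.2 kb on chromosome 15 (67105400 to 67126575) and a pair at 67146173 to 67151159. In the first cluster the replicate 1 folds were 3.84, 4.08, 3.52 and 3.61, and the replicate 2 folds 5.07, 3.42, 3.99 and 3.52. The first peak was the highest in replicate 2, and the second in replicate 1. In the pair, the second peak was higher in both, at 4.69 and 4.29. SMAD7, an inhibitory SMAD, had a pair on chromosome 18 with median folds of 3.61 and 3.96 in replicates 1 and 2. TGFBI, a secreted matrix protein, had a cluster of 3 peaks that came within 10 kb of its body. SMURF2, described above, also belongs to this list, and none of its ligand or receptor genes had a cluster.

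Integrin and focal adhesion genes held clusters in 5 of 27 cases (18.5%), against 1.5% of all coding genes. These proteins anchor cells to the matrix. ITGA3, the integrin alpha-3 chain, had a cluster of 3 peaks, 2 of them overlapping its body, on chromosome 17 (50050961 to 50065118), with folds of 4.48, 4.28 and 3.83 in replicate 1 and 4.94, 3.46 and 4.01 in replicate 2. Its first peak was the highest in both. ITGB3 had a pair overlapping its body, ITGB6 the pair beside it given above, CAV2 (caveolin-2) a pair that includes its promoter, and TNS3 (tensin-3) a pair within 10 kb.

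YAP/TEAD genes held clusters in 5 of 30 cases (16.7%), against 1.5% of all coding genes. These genes encode parts of the Hippo pathway or targets of its effectors. The CCN2 pair spanned 3.48 kb on chromosome 6 (131951270 to 131954749). The peak over the promoter printed above had folds of 3.85 and 4.04 in replicates 1 and 2, and the other 3.57 and 3.70. MYOF (myoferlin, a membrane repair protein) had 3 peaks on chromosome 10, with folds of 4.39, 3.81 and 4.86 in replicate 1 and 3.88, 3.74 and 4.37 in replicate 2. The third MYOF peak was the highest in both. ASAP1 and RBMS3 had pairs overlapping their bodies. The CRIM1 pair was only within 10 kb of that gene and lay in the body of its neighbour FEZ2. STK4 was not on this list.

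Collagen and matrix genes held clusters in 4 of 24 cases (16.7%), against 1.5% of all coding genes. The collagen genes COL5A2 and COL1A1 and the laminin genes LAMB1 and LAMA5 each had a pair, that of COL1A1 outside the gene but within 10 kb and that of LAMA5 of low fold (median 2.99).

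Growth factor receptors and ligands held clusters in 2 of 22 cases (9.09%), both receptors, against 1.5% of all coding genes. EGFR had 3 peaks over 24.3 kb on chromosome 7 (55062805 to 55087121) and a pair at 55128322 to 55134431. In the first, folds were 4.47, 3.66 and 3.4 in replicate 1 and 3.97, 4.12 and 3.50 in replicate 2. In the pair they were 3.81 and 4.02, and 4.28 and 4.40. IGF1R had a pair on chromosome 15.

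Other lists held 0 to 2 genes with clusters, and the share over all coding genes was 1.5%. In lists of this size a count of 1 is no result about the list. Among actin genes CALD1 (caldesmon) had 2 pairs and PALLD (palladin) 1, for 2 of 23 (8.7%). Among 24 junction genes, DST (dystonin) had 2 pairs and PKP2 (plakophilin-2) 1, a share of 8.33%. The first peak of one DST pair covered the promoter printed above, which DST shares with BEND6 on the other strand, with folds of 3.43 and 3.74 in replicates 1 and 2. LOXL2, a collagen crosslinking enzyme, was the 1 of 20 mesenchymal genes (5%). TNFRSF11B (osteoprotegerin) was the 1 of 24 inflammatory genes (4.17%), with a cluster of 3 peaks that came within 10 kb of it. NR3C1, the glucocorticoid receptor, was the 1 of 19 endometrial and hormone genes (5.26%). Its pair on chromosome 5 had folds of 3.53 and 4.63 in replicate 1 and 3.88 and 4.51 in replicate 2.

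No cluster lay at the 20 keratin and epithelial identity genes, the 14 AP-1 factor genes, the 28 SWI/SNF subunit genes or the 26 ribosomal protein genes. The share over all coding genes was 1.5%, so in lists of this size a count of 0 is near the background and is no result about them. Arm shared peaks outside clusters were found at 5, 2, 3 and 0 of these (25%, 14.3%, 10.7% and 0%), against 8.34% of all coding genes. The latter share counts clustered peaks too. The keratin, AP-1 and ribosomal genes were short, with median lengths of 9.75, 12.9 and 4.69 kb, against 24.5 kb for all coding genes. The SWI/SNF genes were not short, at 39.5 kb. The lists with the highest cluster shares had medians of 86.0 (integrin), 77.3 (matrix), 52.7 (TGF-beta) and 49.4 kb (YAP/TEAD). The neuronal list, with 1 gene, had 71.6 kb. The part of length was not tested. Of markers of other cell types, none of 16 stromal, 16 endothelial or 16 immune genes had a cluster, and SNAP25 was the 1 of 16 neuronal genes (6.25%). The stromal list leaves out COL1A1, a fibroblast marker counted with the matrix genes, which had a pair within 10 kb. Arm shared peaks were found at 5 of the 16 stromal genes (31.3%) and at 1 of 16 each of the endothelial, immune and neuronal genes.

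**Figure D5:**
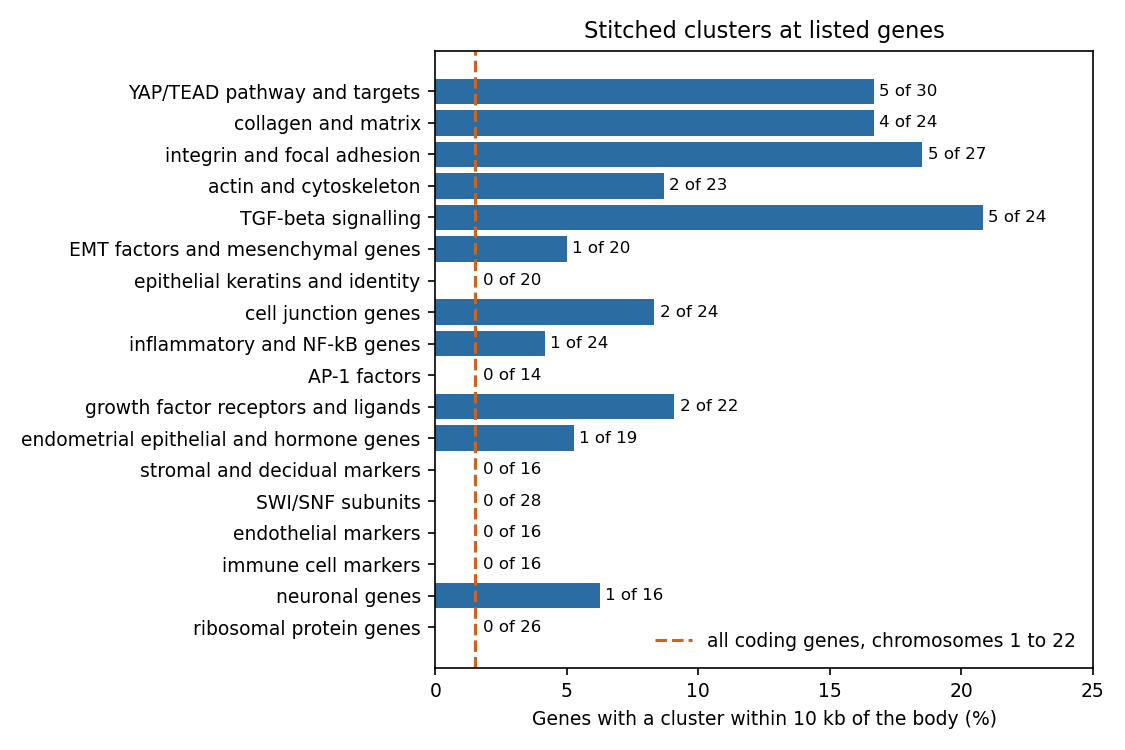
Percentage of each list's genes with a stitched cluster within 10 kb of the body (bars, with counts), for 18 gene lists. The dashed line is the share of all coding genes, 1.5%. The TGF-beta, integrin, YAP/TEAD and matrix lists reach 16.7% to 20.8%, and 7 lists have no gene with a cluster. The same high lists hold arm shared peaks of any kind at 37.5% to 55.6% of their genes, against 8.34% of all.

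All 388 distinct list entries matched the gene table, and 29 of the 383 on chromosomes 1 to 22 had a cluster. Arm shared peaks of any kind lay at 37.5% of the TGF-beta, 55.6% of the integrin, 53.3% of the YAP/TEAD and 41.7% of the matrix genes. The share over all coding genes was 8.34%. These counts include genes with clusters, so they do not show whether high shares at these lists were particular to clusters. Among genes with such a peak, a cluster was present at 5 of 9 (TGF-beta) and 5 of 15 (integrin). It was present at 5 of 16 (YAP/TEAD) and 4 of 10 (matrix), against 286 of 1595 coding genes. These differences were not tested. The lists were written with earlier results of these data known, so their counts are descriptions and are no independent evidence.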

How the data were processed

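BRG1 ChIP-seq of 12Z cells gave 1 deposited list of broad peaks per replicate and 1 overlap list. The submitters' processing notes name Bowtie2, MACS2, bedtools, Picard, SAMtools, Trim Galore and cutadapt, with build GRCh38.p12; their versions were not given in the sources used here. Each deposited peak carries the authors' fold (a ratio of signal to background), −log10 p and −log10 q, and the deposited score is 10 times the −log10 q and was not used. Lists hold no reads, so depth is unknown.

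Peaks were joined where the gap to the next was at most 12500 bases (Python 3.11.15, numpy 2.4.6, scipy 1.17.1, pandas 2.3.3, matplotlib 3.10.9). Stitching and Fisher's test were checked on simulated data. Gene positions came from RefSeq (GRCh38.p14), whose coordinates are printed only for promoter windows. The rule for clusters and genes named took the 10 clusters with the most peaks, the longest span and the highest replicate fold percentile. It also took up to 4 members per gene list, and promoters under clustered peaks of these, not all of which are printed. EMP1, CAPN2, the genes with 2 or 3 clusters and the low-fold clusters were chosen after their values were seen, as were list members beyond 4. Members and lists were chosen with earlier results of these data known. One list member with a cluster is counted but not reported here. No other column of per-sample values was left out.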

Additional observations from a re-analysis of the deposited data

How the results depend on the processing

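Counts and sizes followed the joining gap, the q threshold and the list used. Clusters numbered 483, against 305 at a gap of 5 kb, 234 with a −log10 q of 3 or more and 28 where 50% of both peaks had to be shared with each replicate. Without replicate 1 or without replicate 2, the remaining list alone gave 771 to 2094 clusters. The clustered share of 29.0% became 17.4% at 5 kb, 39.6% at 25 kb, 19.7% with the stricter q and 6.84% with 50% shared, and 37.4% to 48.54% without a replicate. Clusters of 5 or more peaks numbered 7, against 1 at 5 kb, 28 at 25 kb, 1 with the stricter q, 0 with 50% shared, 4 without peaks within 2.5 kb of a gene end, and 31 to 137 without a replicate. Chromosomes 5, 15 and 20 held 26.5% of clusters, 35.7% with 50% shared and 17.9% to 26.5% without a replicate.

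Odds ratios of clusters to lone peaks were 0.99 for gene bodies, 0.86 for gene ends and 0.90 for no gene within 100 kb. The gene-body ratio turned to 1.02 at 5 kb, 1.00 with windows widened by 1 Mb, 1.00 without peaks of fold under 3, 1.28 with lncRNA genes added (Fisher's exact test, adjusted p = 0.0538) and 0.99 to 1.03 without a replicate. The far ratio turned to 1.06 at 25 kb and 1.21 with 50% shared. The gene-end ratio stayed at 0.86 with the middle peak. It passed the threshold at 0.57 with the peak of highest fold, and was 0.67 to 0.81 without a replicate. Of 38 values for position, 3 passed the threshold, all for gene ends. Why these values moved was not examined, and the cause was not tested. No paired analysis was possible because the BRG1 group has no second group with its replicate numbers. Only removing peaks of fold under 3 was chosen after seeing the data. No cluster arose from the 11 shared peaks of chromosome X.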
